A study of Mus musculus with 4 samples.

Results

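The Wnt ligands, the Frizzled receptors that bind them and 2 families of secreted antagonists were examined. The antagonists were the secreted Frizzled-related proteins (Sfrp) and the Dickkopf proteins (Dkk). The RNA-seq libraries were those of bead-isolated cells taken as TAMs (tumor-associated macrophages) from murine neuroblastoma. Members were the protein-coding genes of the deposited table with a symbol made of Wnt, Fzd, Sfrp or Dkk and a number, which gave 37 genes of the 54532 in the table. They comprised 19 Wnt ligands, 10 Frizzled receptors, 4 Sfrp genes and 4 Dkk genes. The rule reads symbols and uses no measured value, although earlier results of these data were known when it was set.

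The 4 libraries came from tumors of NB9464, a mouse neuroblastoma line with amplified MYCN, grown for 40 days in C57BL/6 mice that received NB9464 cells under the skin and no treatment. The mice were 4 to 6 weeks old when injected. Libraries M7 and M8 were labelled SYK WT (SykMC-WT) and M9 and M10 SYK KO (SykMC-KO), a cross of floxed *Syk* with a Cre recombinase driven by the lysozyme M gene (*Lyz2*), which is active in macrophages, monocytes and neutrophils and not in tumor or stromal cells. Cells were taken from dissociated tumors with CD11b and F4/80 magnetic beads, although the protocol in the labels then refers to RNA of BMDMs (bone marrow-derived macrophages) and the deposited table is named for an adoptive transfer of macrophages. The libraries were taken as TAMs on the rest of the labels. Whether each library came from 1 mouse or from pooled mice is not stated in the sources used here, so p-values measure the spread between 2 libraries of each label, which may be technical.

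The libraries held between 20755886 and 23518045 counts, and 3 counts, taken as the smallest detectable signal, corresponded to 0.109 to 0.163 CPM (counts relative to the library total after TMM scaling, which sets the bulk of genes equal between libraries). This floor covers counting error only, since without molecular identifiers 1 molecule can give several reads. Mitochondrial genes took 2.20% and 2.34% of counts in M7 and M8 against 6.00% and 15.9% in M9 and M10. *Syk* was not lower but higher in the libraries labelled SykMC-KO, at 27.9 and 23.2 CPM in M7 and M8 and 196 and 160 CPM in M9 and M10, so every direction below is that of the libraries as labelled. Exchanged labels would turn every direction, and neither they nor unequal macrophage content was tested as the source of the *Syk* values. *Lyz2*, whose promoter drives the Cre, did not follow *Syk*. It was at 296 and 208 CPM in M7 and M8 and at 8.64 and 20.2 CPM in M9 and M10. Like *Syk*, each of the 10 macrophage markers rose from M7 and M8 to M9 and M10 (median log2 fold change 2.82). Their summed level was 1294 and 917 CPM in M7 and M8 and 10373 and 6225 CPM in M9 and M10. The 8 fibroblast markers moved the other way, with a median of -1.44, 5 of 8 lower past the test and summed levels of 12549, 14444, 4060 and 4959 CPM. Of the neuroblastoma markers, *Th* and *Dbh* had 0 counts in all 4 libraries, whereas *Hand2* lay between 178 and 301 CPM. Summed per kilobase of exon, the fibroblast markers were at 1587 and 1835 CPM in M7 and M8 against 698 and 488 for the macrophage markers, and at 517 and 648 in M9 and M10 against 5949 and 3665. The fibroblast sums came mainly from *Col1a1* and *Col3a1*, with 1490 and 1737 CPM per kilobase in M7 and M8, and the other 6 markers summed to 97.2 and 98.4 there and to 38.5 and 54.5 in M9 and M10. In such bulk libraries, fewer cells of a type and less RNA per cell cannot be told apart. Nor can the level of a member be assigned to macrophages or to other cells.

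Wnt proteins are lipid-modified, secreted signals that act over short distances. They are acylated by *Porcn*, carried to the surface by *Wls* and received by a Frizzled receptor together with *Lrp5* or *Lrp6*, which protects beta-catenin from its destruction complex and switches on TCF/LEF target genes. Other ligands, *Wnt5a* and *Wnt11* among them, act mainly through Ror or *Ryk* receptors and planar cell polarity proteins without beta-catenin. Sfrp proteins carry a Frizzled-like domain and bind Wnt ligands outside the cell, while most Dkk proteins bind the Lrp co-receptors. In tumors, Wnt ligands and antagonists are made by fibroblasts and other stromal cells as well as by macrophages.

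Promoter sequence was read from RefSeq (GRCm38.p6) for the 25 members that matched its promoter table, and the 250 bases upstream of the start are printed for 4 of them because they carry the contrast described below: *Wnt6*, the most abundant ligand, *Wnt4*, the ligand with values above those of the other label, and *Wnt10b* and *Sfrp2*, which fell most. Capitals mark the GC box, searched as GGGCGG or its reverse complement CCGCCC. The windows are chr4:137277385-137277634 (plus strand) for *Wnt4*, chr1:74771642-74771891 (plus strand) for *Wnt6*, chr15:98778151-98778400 (minus strand) for *Wnt10b* and chr3:83766071-83766320 (plus strand) for *Sfrp2*. RefSeq places the start of *Wnt4* 146 bases downstream of the GENCODE start, so that window lies partly inside the GENCODE gene.
Wnt4: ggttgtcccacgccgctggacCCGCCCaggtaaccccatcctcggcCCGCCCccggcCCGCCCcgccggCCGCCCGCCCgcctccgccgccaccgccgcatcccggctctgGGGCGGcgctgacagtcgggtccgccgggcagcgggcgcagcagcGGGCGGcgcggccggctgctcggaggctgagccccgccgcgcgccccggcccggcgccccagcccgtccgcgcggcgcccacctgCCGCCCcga
Wnt6: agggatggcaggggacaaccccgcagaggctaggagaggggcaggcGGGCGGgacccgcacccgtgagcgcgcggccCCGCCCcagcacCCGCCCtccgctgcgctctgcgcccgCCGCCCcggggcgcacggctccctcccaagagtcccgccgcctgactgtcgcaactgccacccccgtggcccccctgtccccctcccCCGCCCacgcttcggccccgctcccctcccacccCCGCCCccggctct
Wnt10b: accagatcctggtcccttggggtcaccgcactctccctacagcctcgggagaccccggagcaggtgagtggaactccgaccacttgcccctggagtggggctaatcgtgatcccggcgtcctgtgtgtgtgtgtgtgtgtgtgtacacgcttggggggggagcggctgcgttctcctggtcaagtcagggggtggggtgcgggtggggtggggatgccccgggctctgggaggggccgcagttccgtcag
Sfrp2: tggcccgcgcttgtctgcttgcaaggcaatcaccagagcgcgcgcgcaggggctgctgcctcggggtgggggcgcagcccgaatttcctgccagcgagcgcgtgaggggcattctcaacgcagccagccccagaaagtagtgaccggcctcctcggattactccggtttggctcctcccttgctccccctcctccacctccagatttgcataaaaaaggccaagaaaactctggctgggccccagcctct
The *Wnt4* window held 8 GC boxes, 2 of them overlapping each other, and the *Wnt6* window 6, whereas the windows of *Wnt10b* and *Sfrp2* held 0. These windows were chosen by the measured values of their genes, so they cannot relate boxes to expression. *Wnt6* was itself lower (log2 fold change -0.97). Among other members called lower, the window of *Wnt9a* (-1.30) held 5, that of *Wnt11* (-1.32) 4 and that of *Fzd1* (-1.59) 0. A GC box was found in 19 of the 25 members' windows and in 32.7% of all 32851 promoter windows of the same length. The members' windows were rich in G and C, with a median of 71.6% against 52.4% over all windows, and held a median of 23 CpG pairs against 6. The TCF/LEF letters CTTTGAT (either strand) were found in 1 member, *Wnt11*, and in 3.21% of all windows. The TATA letters TATAAA (either strand) were found in 4 members, *Wnt11*, *Fzd1*, *Dkk1* and *Dkk2*, and in 12.4% of all windows. These matches describe letters in a window and are not evidence that a factor binds there.

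The first question was which members were present in the bead-isolated cells. Of the 37 members, 20 passed the expression filter of edgeR and 17 did not. A group of 4 was without a count in any library, namely *Wnt3a*, *Wnt7a*, *Wnt9b* and *Dkk4*, which allows up to 3 counts in each. The others that did not pass were sparse: *Fzd8*, a receptor, had 12, 7, 9 and 6 counts in M7, M8, M9 and M10. The ligand *Wnt7b* had 9, 7, 4 and 0 counts. The remaining 11, *Wnt1*, *Wnt2*, *Wnt3*, *Wnt8a*, *Wnt8b*, *Wnt16*, *Fzd3*, *Fzd9*, *Fzd10*, *Sfrp5* and *Dkk1*, had at most 7 counts in any library, and no genotype difference was detectable for them at this depth. *Wnt1* and *Wnt3a*, the classical activators of beta-catenin, were thus at or near 0, and so was *Dkk1*, the best known Lrp antagonist.

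Levels of different genes were compared as CPM per kilobase of exon, since longer transcripts collect more reads. *Wnt6* (ENSMUSG00000033227, chromosome 1, 74771892 to 74785322), a ligand of embryonic epithelia, had the highest level of any member, at 45.1 and 50.6 CPM per kilobase in M7 and M8 and 21.3 and 27.5 in M9 and M10. *Wnt10a* (ENSMUSG00000026167, chromosome 1, 74791516 to 74804179), a ligand needed for teeth and skin appendages, was the next ligand in the libraries labelled SykMC-WT, at 22.3 and 24.8 CPM per kilobase. *Wnt6* and *Wnt10a* are neighbours, 6.19 kb apart on the same strand, and both were among the more abundant members. *Wnt10b*, *Wnt9a* and *Wnt4* followed at 15.1 ± 3.57, 12.6 ± 1.57 and 9.85 ± 2.44 CPM per kilobase (SD, n = 2) in the libraries labelled SykMC-WT, and the values of *Wnt10b* (12.6 and 17.7) overlapped those of *Wnt9a* (11.5 and 13.7). Among receptors the order there was *Fzd1* (28.0 ± 3.56), *Fzd2* (16.3 ± 1.34), *Fzd7* (11.7 ± 0.620) and *Fzd6* (5.55 ± 0.782), with no overlap between neighbours. In the libraries labelled SykMC-KO the receptors *Fzd7*, *Fzd2* and *Fzd1* lay at 10.9 ± 0.878, 9.51 ± 2.37 and 9.32 ± 1.83 CPM per kilobase, and their values overlapped. *Sfrp2* was the leading antagonist at 12.4 ± 0.556 CPM per kilobase in the libraries labelled SykMC-WT, whereas no Dkk gene exceeded 0.787 CPM per kilobase in any library.

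**Figure D1:**
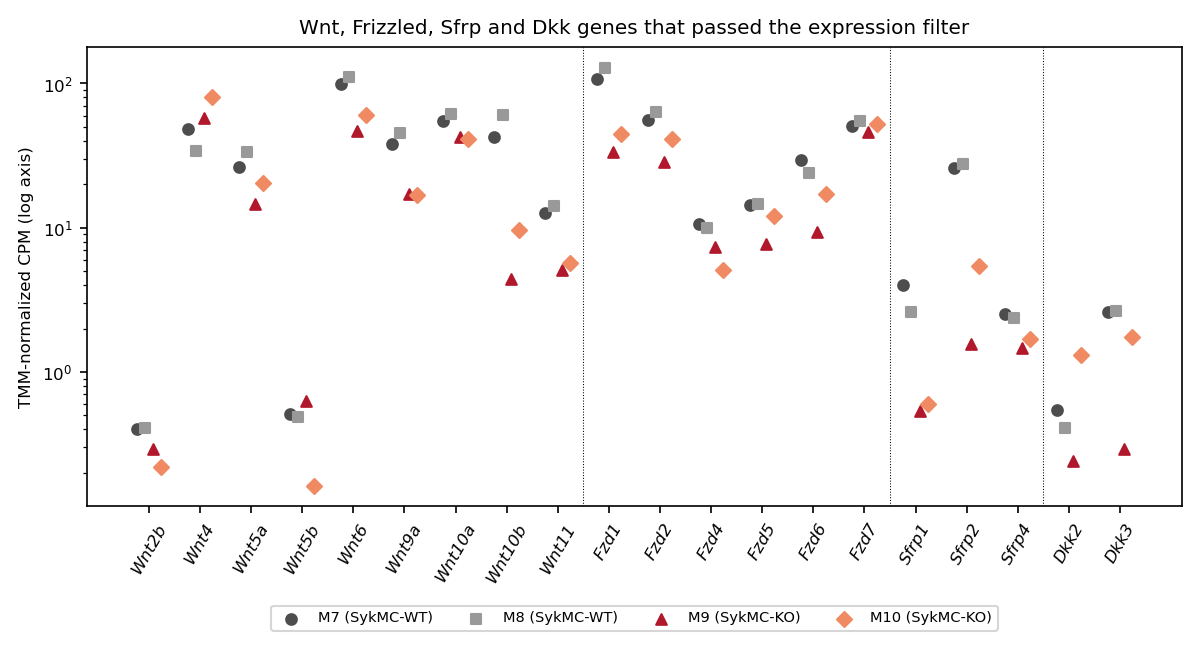
TMM-normalized CPM (log axis) of the 20 Wnt, Frizzled, Sfrp and Dkk genes that passed the expression filter, with 1 point for each of the libraries M7 and M8 (labelled SykMC-WT) and M9 and M10 (labelled SykMC-KO); dotted lines separate the families. The widest gaps between labels are at *Wnt10b*, *Sfrp1* and *Sfrp2*, the points of *Fzd7* lie together between 46.4 and 55.0 CPM, and *Wnt4* is the gene with both SykMC-KO points above both SykMC-WT points.

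The second question was which members differed between the labels. By edgeR's quasi-likelihood test, with p-values adjusted over the 16451 genes tested and a threshold of 0.05, 10 of the 20 members tested were lower in the libraries labelled SykMC-KO, against 16.7% of the 16451 genes tested, and 0 were higher, against 22.7%. The 10 were 5 Wnt ligands, 3 Frizzled receptors and 2 Sfrp genes. At an unadjusted p under 0.05, 8211 of the 16451 genes passed in either direction, so differences between these labels were widespread. The median log2 fold change of the 20 members was -0.78, and that of all genes tested was 0.02. Both libraries labelled SykMC-KO lay below both others for 16 members and above them for 1 (*Wnt4*), against 37.2% and 38% of all genes. These counts cover the members that passed the filter and not all 37, and no test of the list was made. The count of lower members depended on single libraries, with 5 without M7 (7.09% of all genes lower), 4 without M8 (4.69%), 12 without M9 (25.8%) and 13 without M10 (27.4%). *Wnt9a*, *Wnt10b*, *Fzd1* and *Sfrp2* were lower past the test in each of these 4 sets of 3 libraries. For 1 gene alone, permuting the 4 libraries exactly gives at best a two-sided p of 0.333, so the adjusted p-values below borrow their error from all genes.

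*Wnt10b* (ENSMUSG00000022996, chromosome 15, 98770712 to 98778150, minus strand), which activates beta-catenin and is known for holding back fat cell formation, was the ligand that fell most. It was measured at 42.9 and 60.1 CPM in M7 and M8 and at 4.42 and 9.70 CPM in M9 and M10. The labels did not overlap, and the difference was 7.32-fold (log2 fold change -2.87, standard error 0.388, adjusted p = 0.00311). Its neighbour *Wnt1*, 11.7 kb away, had at most 3 counts in any library. Leaving out each library in turn kept the log2 fold change of *Wnt10b* between -3.53 and -2.50.

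*Wnt9a* (ENSMUSG00000000126, chromosome 11, 59306928 to 59333552), a ligand of joint formation, fell from 38.2 and 45.6 CPM in M7 and M8 to 17.2 and 16.9 CPM in M9 and M10. The labels did not overlap (log2 fold change -1.30, standard error 0.177, adjusted p = 0.00319). *Wnt3a*, which lies 16.2 kb from *Wnt9a*, had 0 counts throughout. *Wnt6* fell from 98.8 and 111 CPM to 46.6 and 60.3 CPM (log2 fold change -0.97, standard error 0.184, adjusted p = 0.00911). Although it fell by 1.96-fold, it was the most abundant ligand per exon length in all 4 libraries. Its call was lost without M8 (adjusted p = 0.0720).

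The ligands best known for signalling without beta-catenin were lower too. *Wnt11* (chromosome 7, 98835112 to 98855195), which guides cell movements in the embryo, was at 12.6 and 14.2 CPM in M7 and M8 and at 5.10 and 5.67 CPM in M9 and M10 (log2 fold change -1.32, adjusted p = 0.0102), and its call was lost without M7 or without M8, with an adjusted p of up to 0.121. *Wnt5a* (chromosome 14, 28504750 to 28527448), the main ligand of Ror receptors, was at 26.5 and 33.7 CPM against 14.6 and 20.3 CPM (log2 fold change -0.79, adjusted p = 0.0395). It lost its call in the same 2 sets, with an adjusted p of up to 0.296. *Wnt5b*, its close relative, was sparse at 0.510, 0.488, 0.631 and 0.163 CPM, and its labels overlapped.

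*Wnt4* (ENSMUSG00000036856, chromosome 4, 137277489 to 137299726), a ligand of kidney and female gonad development, had values in the opposite direction to the other abundant ligands. It was at 48.5 and 34.1 CPM in M7 and M8 and at 57.7 and 80.8 CPM in M9 and M10, so that both libraries labelled SykMC-KO were above both others. With a standard error of 0.245, its log2 fold change of 0.75 missed the threshold (adjusted p = 0.0526). DESeq2's Wald test called *Wnt4* higher (adjusted p = 0.035), against 19.6% of all genes. It was also called with all genes of at least 1 count tested (15.7% of them higher) and at an adjusted p under 0.1 (27.8% of all genes higher). Leaving out M9 or M10 also gave a call, where 24.8% and 28.9% of all genes were higher, while leaving out M7 or M8 did not (12.1% and 8.58%). The adjusted p ranged from 0.000826 to 0.348 over the 4 sets of 3 libraries. *Wnt10a* stood just outside the threshold in the other direction, at 55.2 and 61.1 CPM against 42.4 and 41.5 CPM (log2 fold change -0.47, adjusted p = 0.0502). It was called lower under 8 of 13 alternatives. Among them were DESeq2 size factors (adjusted p = 0.0447, 17.4% of all genes lower) and total counts (adjusted p = 0.00636, 32.9% lower). The 8 also held macrophage and pan-leukocyte scaling, where 86.3% and 92.3% of all genes were lower. DESeq2's Wald test did not call it (adjusted p = 0.0630), and its sign turned with fibroblast scaling (0.62, adjusted p = 0.0603). *Wnt2b* was sparse, at 0.401 and 0.407 CPM in M7 and M8 and 0.291 and 0.218 CPM in M9 and M10 (log2 fold change -0.65, adjusted p = 0.538).

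Because every value above depends on how libraries are scaled to each other, the ligands were also compared within each library, as shares of the summed ligand counts per exon length. *Wnt6* made up 41.0% and 41.1% of the ligand pool in M7 and M8 and 34.2% and 36.3% in M9 and M10. *Wnt4* took 10.5% and 6.60% of the pool in M7 and M8 and 22.2% and 25.4% in M9 and M10. *Wnt10b* went the other way, with 11.5% and 14.4% against 2.09% and 3.76%. *Wnt10a* took 20.3% and 20.1% in M7 and M8 and 27.6% and 22.2% in M9 and M10, and *Wnt9a* 10.4% and 11.1% against 8.31% and 6.69%. The share of *Wnt5a* was 3.08%, 3.50%, 2.997% and 3.42% in M7, M8, M9 and M10. Set against *Wnt6* in the same library, *Wnt4* was at 0.257 and 0.160 of its level in M7 and M8 and at 0.647 and 0.700 in M9 and M10, whereas *Wnt10b* was at 0.280 and 0.349 against 0.0611 and 0.104. These shares need no scaling between libraries, and they were not tested.

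**Figure D2:**
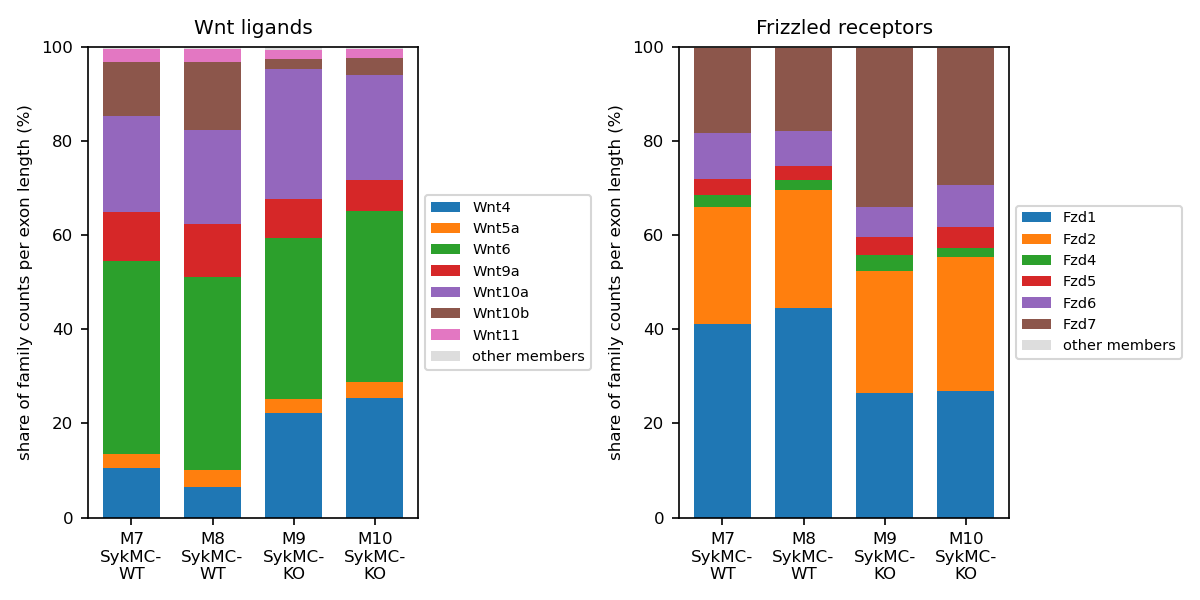
Share of the counts per exon length of each family (percent, stacked to 100) taken by each Wnt ligand (left) and each Frizzled receptor (right) in libraries M7 and M8 (labelled SykMC-WT) and M9 and M10 (labelled SykMC-KO). The *Wnt4* segment grows from at most 10.5% to at least 22.2% and the *Wnt10b* segment shrinks to at most 3.76%, while *Fzd7* reaches 29.1% or more and *Fzd1* falls to 26.9% or less.

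Of the 10 Frizzled receptors 6 passed the filter, and all 6 had a negative log2 fold change. The test called 3 of them lower, where 16.7% of all genes tested were lower. *Fzd1* (ENSMUSG00000044674, chromosome 5, 4753839 to 4758035, minus strand), the leading receptor in M7 and M8, was at 107 and 128 CPM there and at 33.7 and 44.6 CPM in M9 and M10. This was a 3.01-fold difference (log2 fold change -1.59, standard error 0.200, adjusted p = 0.00249) with no overlap. *Fzd2* (chromosome 11, 102604396 to 102608058), of the same subfamily, was at 56.1 and 63.1 CPM against 28.7 and 41.0 CPM (log2 fold change -0.78, adjusted p = 0.0291). *Fzd6* (chromosome 15, 39006034 to 39038188), known for its part in hair and tissue polarity, was at 29.4 and 24.1 CPM against 9.27 and 17.1 CPM (log2 fold change -1.03, adjusted p = 0.0421). The calls of *Fzd2* and *Fzd6* were both lost without M7 or without M8, with adjusted p-values of up to 0.177 and 0.169.

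*Fzd7* (ENSMUSG00000041075, chromosome 1, 59482424 to 59486955), the third receptor of the *Fzd1* and *Fzd2* subfamily, was at 51.0 and 55.0 CPM in M7 and M8 and at 46.4 and 52.0 CPM in M9 and M10. The labels overlapped (log2 fold change -0.11, standard error 0.156, adjusted p = 0.615). Set against *Fzd1* per exon length in the same library, *Fzd7* was at 0.441 and 0.397 of its level in M7 and M8 and at 1.28 and 1.08 in M9 and M10. *Fzd7* thus took 18.2% and 17.7% of the receptor pool in M7 and M8 and 33.8% and 29.1% in M9 and M10, while *Fzd1* took 41.2% and 44.5% against 26.5% and 26.9%. The share of *Fzd2* stayed between 24.7% and 28.4%. *Fzd4*, the receptor of Norrin in retinal vessels, was at 10.7 and 9.93 CPM against 7.33 and 5.12 CPM (log2 fold change -0.73, adjusted p = 0.0979). *Fzd5* was at 14.5 CPM in both M7 and M8 and at 7.67 and 12.0 CPM in M9 and M10 (log2 fold change -0.56, adjusted p = 0.158). Neither *Fzd4* nor *Fzd5* passed the test, although their labels did not overlap.

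The soluble antagonists *Sfrp1* and *Sfrp2* showed some of the widest differences among the members. *Sfrp2* (ENSMUSG00000027996, chromosome 3, 83766321 to 83774316) was at 25.8 and 27.5 CPM in M7 and M8 and at 1.55 and 5.45 CPM in M9 and M10. It was 7.65-fold lower in the libraries labelled SykMC-KO (log2 fold change -2.94, standard error 0.529, adjusted p = 0.00775), and its log2 fold change was -4.08 without M10 and -2.37 without M9. An antisense gene, *Gm26771*, covers 16.1% of the *Sfrp2* exon bases and was itself at 14.3, 17.7, 2.28 and 2.94 CPM in M7, M8, M9 and M10. The use of strand in counting is not stated in the sources used here, so reads in the shared bases cannot be assigned to one of the 2 genes. Antisense genes also cover 17.8% of the exon bases of *Fzd5*, 8.8% of *Wnt11*, 4.58% of *Wnt5a* and 3.15% of *Fzd6*, and the partner of *Wnt11* had 0 counts. *Sfrp1* (chromosome 8, 23411502 to 23449632) was much less abundant, at 4.01 and 2.604 CPM against 0.534 and 0.599 CPM (log2 fold change -2.54, standard error 0.544, adjusted p = 0.0135). Its call was lost without M7 or without M8, with an adjusted p of up to 0.227. *Sfrp4* was at 2.52 and 2.36 CPM in M7 and M8 and at 1.46 and 1.69 CPM in M9 and M10 (log2 fold change -0.63, adjusted p = 0.323).

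The Dickkopf genes were scarce. *Dkk3*, a divergent member of the family that does not act through Lrp co-receptors as its relatives do, had 72 and 65 counts in M7 and M8 and 6 and 32 in M9 and M10. Both libraries labelled SykMC-KO were below the others, but they differed from each other, and the difference did not pass (log2 fold change -1.38, standard error 0.808, adjusted p = 0.217). Without M10 the log2 fold change of *Dkk3* was -3.14 and passed the test, and without M9 it was -0.68 and did not. *Dkk2* was at 0.547 and 0.407 CPM in M7 and M8 and at 0.243 and 1.31 CPM in M9 and M10, so M9 was the lowest and M10 the highest of the 4.

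As whole families, summed per exon length and set against 100 units of Frizzled receptors in the same library, the Wnt ligands amounted to 178 and 179 in M7 and M8 and to 205 and 192 in M9 and M10. The Sfrp genes amounted to 21.9 and 20.4 in M7 and M8 and to 4.02 and 7.79 in M9 and M10. The Dkk genes stayed between 0.502 and 2.27 in all 4 libraries. Most of the Sfrp sum was *Sfrp2*, which alone amounted to 19.3 and 18.6 in M7 and M8 and to 2.38 and 6.42 in M9 and M10, while *Sfrp4* was at 0.971, 0.822, 1.15 and 1.03. *Wif1*, another secreted protein that binds Wnt ligands, went the other way, with 8.65 and 7.62 in M7 and M8 and 23.7 and 20.5 in M9 and M10. The Sfrp genes and *Wif1* together amounted to 30.5, 27.98, 27.7 and 28.2. The Frizzled sum they are set against itself fell, from 62.0 and 68.7 CPM per kilobase in M7 and M8 to 30.3 and 39.4 in M9 and M10. *Wif1* alone was at 5.36 and 5.23 CPM per kilobase against 7.18 and 8.06. Its difference did not pass edgeR's quasi-likelihood test (adjusted p = 0.0854). The fall of the Sfrp sum was thus not shared by *Wif1*. The family sums were not tested.

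The fibroblast markers moved in the same direction as most members, so the fit was repeated with libraries scaled to the geometric mean of the 8 fibroblast markers, a scaling added once the data had been seen. It moved the median of all genes to 1.10 and that of the 20 members to 0.28, so values are read against the former. On that scale 2 members were lower, *Wnt10b* (log2 fold change -1.83, adjusted p = 0.00212) and *Sfrp2* (-1.92, adjusted p = 0.00638), against 3.18% of all genes, and 2 were higher, *Wnt4* (1.79, adjusted p = 0.00126) and *Fzd7* (0.97, adjusted p = 0.00782), against 55.6%. *Fzd1* was at -0.52 (adjusted p = 0.0941) and *Wnt9a* at -0.21 (adjusted p = 0.520). Per 100 counts of that marker mean, *Wnt6* was at 48.4, 49.5, 51.5 and 53.3 in M7, M8, M9 and M10. By the same measure *Wnt10b* was at 21.03, 26.8, 4.88 and 8.56, and *Sfrp2* at 12.6, 12.3, 1.72 and 4.81. *Wnt4* was at 23.8, 15.2, 63.8 and 71.4. The fibroblast list itself was uneven, since *Col3a1* and *Pdgfra* fell while *Dcn* (93.0, 92.3, 51.8 and 101 CPM), *Lum* and *Fap* did not pass the test. Scaled instead to the 10 macrophage markers, 19 of the 20 members were lower, against 86.3% of all genes, and *Wnt4* turned to -1.88, with 0.827% of all genes higher. With pan-leukocyte scaling all 20 were lower, where 92.3% of all genes were lower and 0.401% higher. What part the share of stromal cells, or the mitochondrial share, had in the members' differences was not tested.

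**Figure D3:**
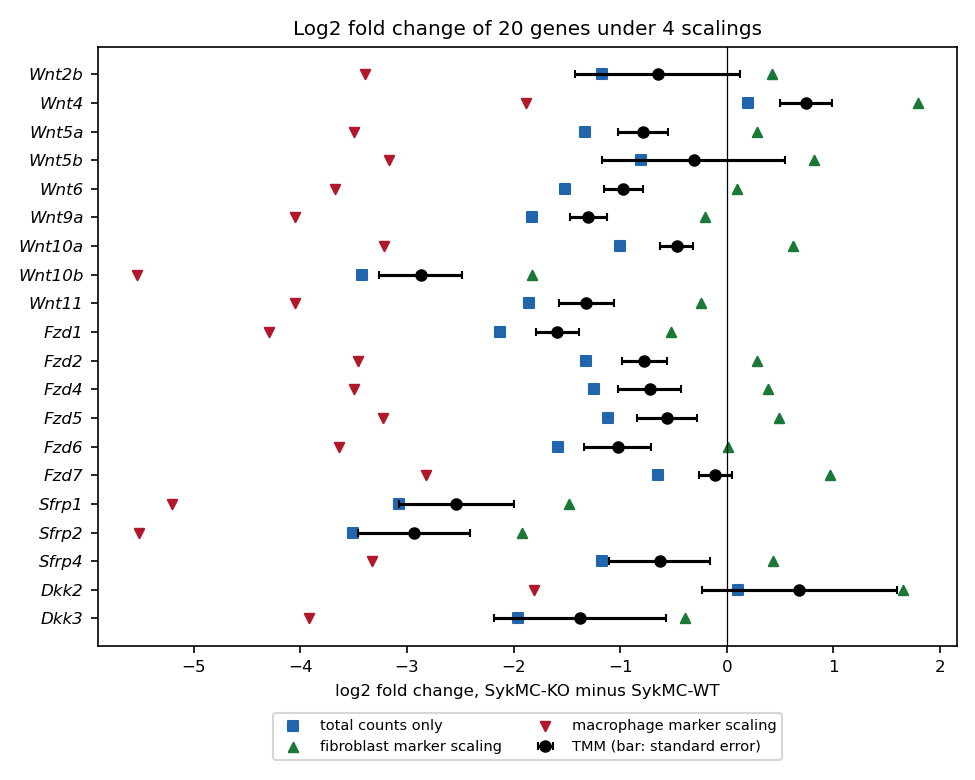
Log2 fold change (SykMC-KO minus SykMC-WT labels) of the 20 members tested under 4 scalings of the libraries: TMM (black circles, bars give the standard error), total counts only (blue squares), 10 macrophage markers (red triangles pointing down) and 8 fibroblast markers (green triangles pointing up). The scaling shifts every gene by a similar amount, and under fibroblast scaling the points of *Wnt10b* at -1.83 and *Sfrp2* at -1.92 remain farthest to the left while *Wnt4* moves to 1.79.

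The other genes of the pathway were read from lists of 80 genes in 8 groups by role, of which 73 passed the filter. By edgeR's quasi-likelihood test 30 of them were lower in the libraries labelled SykMC-KO and 6 were higher, against 16.7% and 22.7% of all genes, and their median log2 fold change was -0.45. Both counts were smaller without M7 and without M8, where fewer of all genes were called too. Requiring a log2 fold change of at least 1 left 17 lower genes, against 11.2% of all genes. Scaling by total counts left 3 higher genes, against 10.2% of all genes. With fibroblast scaling 4 were lower, against 3.18% of all genes, and 28 higher, against 55.6%. What part the share of stromal cells had in the differences of these pathway genes was not tested.

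The list of genes that make, release and inactivate Wnt ligands had 3 of 3 lower, where 16.7% of all genes were lower. *Porcn*, the acyltransferase of Wnt proteins, was at 12.9 and 16.8 CPM in M7 and M8 and at 3.54 and 3.98 CPM in M9 and M10 (log2 fold change -1.98, adjusted p = 0.0038). *Wls*, the Wnt carrier, was at 224 and 213 CPM against 118 and 93.5 CPM (log2 fold change -1.04, adjusted p = 0.0068). *Notum*, an enzyme that removes the acyl group and so inactivates the ligand, was at 267 and 216 CPM against 89.1 and 98.3 CPM (log2 fold change -1.37, adjusted p = 0.0029).

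Of 9 co-receptors and other Wnt receptors tested, 5 were lower and 0 higher, against 16.7% and 22.7% of all genes. Their median log2 fold change was -0.96. *Reck* and *Adgra2*, which together present Wnt7 ligands to Frizzled receptors in brain vessels, had log2 fold changes of -1.84 and -1.37. *Ror1* was at 36.3 and 37.5 CPM in M7 and M8 and at 14.8 and 14.1 CPM in M9 and M10 (log2 fold change -1.35, adjusted p = 0.0024), and the pseudokinase receptor *Ptk7* fell with a log2 fold change of -1.21. The co-receptors that pass the signal to beta-catenin gave smaller values. *Lrp5* was at 69.6, 79.7, 64.7 and 81.9 CPM in M7, M8, M9 and M10 (log2 fold change -0.03, adjusted p = 0.921), and *Lrp6* was at 161, 162, 129 and 142 CPM (log2 fold change -0.25, adjusted p = 0.231).

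The list of inhibitors outside the Sfrp and Dkk families went both ways, with 3 of 8 genes lower and 1 higher. Of all genes, 16.7% were lower and 22.7% higher. *Sostdc1*, an Lrp-binding inhibitor, had a log2 fold change of -2.42 and *Tmem131l* one of -0.75. The third lower gene, *Cthrc1* (-2.01), is secreted by activated fibroblasts and is better known for stabilizing complexes of Wnt ligands with Frizzled and *Ror2* than as an inhibitor. *Apcdd1*, a membrane inhibitor, was higher at 34.5 and 45.3 CPM in M9 and M10 against 24.3 and 23.6 CPM in M7 and M8 (log2 fold change 0.74, adjusted p = 0.0253). *Wif1*, which binds ligands as Sfrp proteins do, was at 13.0 and 12.7 CPM against 17.4 and 19.6 CPM (log2 fold change 0.52, adjusted p = 0.0854). *Frzb*, a relative of the Sfrp genes, was at 0.437, 0.651, 0.291 and 2.72 CPM (adjusted p = 0.300). Among R-spondins, Lgr receptors and their ligases, which set the amount of Frizzled at the surface, 1 of 6 passed the test. It was *Lgr4* with a log2 fold change of -0.52, and 1 of 6 was near the 16.7% of all genes that were lower.

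Inside the cell, 8 of the 14 genes for Dishevelled, the destruction complex and beta-catenin were lower and 0 higher. Of all genes, 16.7% were lower and 22.7% higher. *Dvl1*, a Dishevelled adaptor that couples Frizzled receptors to the destruction complex, was at 187 and 229 CPM in M7 and M8 and at 40.8 and 56.8 CPM in M9 and M10 (log2 fold change -2.09, adjusted p = 0.0016). *Apc2* (-1.13), *Amer1* (-1.004) and *Dvl3* (-0.78) followed on the log2 scale. *Ctnnb1*, the gene for beta-catenin, was at 354 and 339 CPM against 448 and 423 CPM (log2 fold change 0.33, adjusted p = 0.168) and did not pass. Of the 14 TCF/LEF factors and co-regulators 2 were lower, *Tle2* (-2.33) and *Bcl9l* (-0.55), and 1 was higher, so neither count was above the share of all genes. That gene was *Lef1*, a TCF/LEF factor prominent in lymphocytes, at 2.30 and 1.51 CPM in M7 and M8 and 6.07 and 10.5 CPM in M9 and M10 (log2 fold change 2.11, adjusted p = 0.0127). Of 5 T cell markers 4 were higher in the same libraries, where 22.7% of all genes were higher. The 5 summed to 8.82, 4.19, 53.9 and 30.2 CPM, mostly from *Cd4* at 8.31, 3.38, 49.8 and 25.9 CPM. *Cd3d*, *Cd3e* and *Cd3g* stayed at or below 2.23 CPM, and *Cd8a* did not pass (log2 fold change -0.44). The part of T cells in the *Lef1* difference was not tested.

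Target and feedback genes of beta-catenin were divided, with 3 of 9 tested lower, 3 higher and 3 not past the test. Of all genes, 16.7% were lower and 22.7% higher. *Axin2*, a feedback inhibitor and widely used readout of the pathway, was at 60.5 and 64.9 CPM in M7 and M8 and at 15.6 and 19.5 CPM in M9 and M10 (log2 fold change -1.84, standard error 0.182, adjusted p = 0.0014). The other 2 lower genes, *Ccn4* (-0.94) and *Fosl1* (-0.79), are named after their values were seen. In contrast *Cd44* (1.68), *Myc* (1.52) and *Ccnd1* (0.96) were higher, and these 3 also respond to many signals other than Wnt. *Cd44*, an adhesion receptor abundant on leukocytes, was at 104 and 73.3 CPM against 335 and 234 CPM. The pan-leukocyte markers were also higher in M9 and M10, 6 of 6 past the test with a median of 3.57 and summed levels of 350, 258, 4087 and 2946 CPM, and their part in this was not tested.

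Planar cell polarity genes had 5 of 10 lower and 1 higher, against 16.7% and 22.7% of all genes. *Prickle2* (-1.60), *Daam2* (-1.41) and *Daam1* (-1.05) were among the lower ones, where Daam proteins link Dishevelled to actin. *Celsr3*, an atypical cadherin of neurons, was at 1.28 and 1.83 CPM in M7 and M8 and at 3.06 and 16.6 CPM in M9 and M10 (log2 fold change 2.65, standard error 0.786, adjusted p = 0.0379), with most of its counts in M10.

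**Figure D4:**
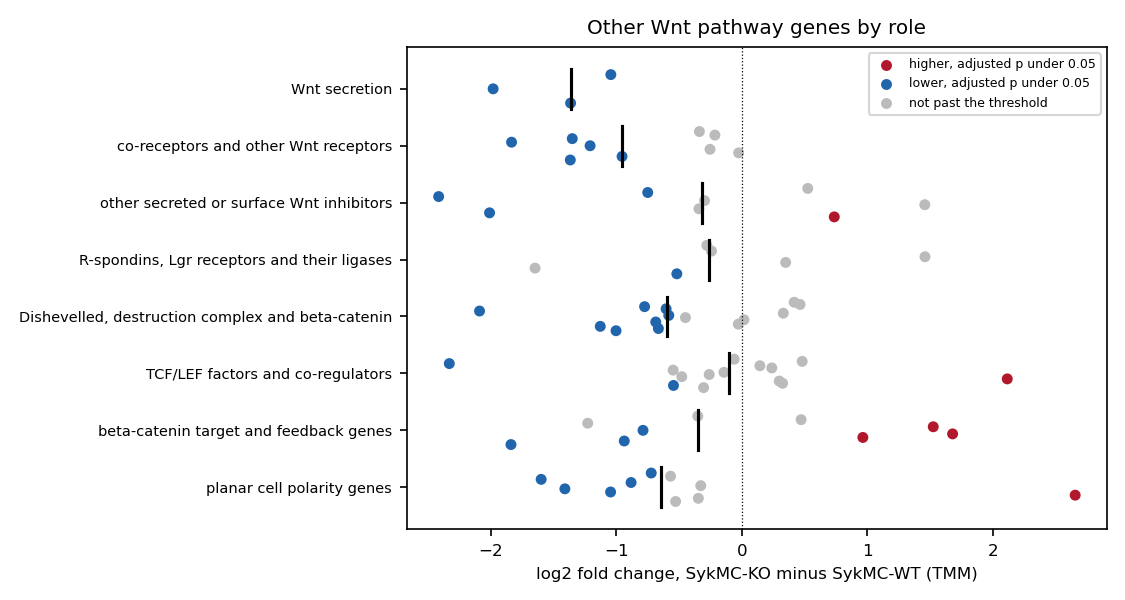
Log2 fold change (SykMC-KO minus SykMC-WT labels, TMM scaling) of the 73 other Wnt pathway genes tested, 1 point for each gene in 8 groups by role; blue points were lower and red points higher with an adjusted p under 0.05, grey points did not pass, and black bars mark the group medians. The points of the secretion group, which includes *Notum*, all lie below -1, and the target genes split between *Axin2* at -1.84 and *Cd44* at 1.68.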

How the data were processed

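Reads were mapped by the authors with STAR 2.6.1d (build mm10) and quantified with Salmon 1.4.0, versions per the submitters' processing notes. The deposited values are whole-number counts per Ensembl gene, not normalized. How whole counts were made from Salmon's estimates is not given in the sources used here. All 4 libraries were used, 2 per label, and their counts differed beyond sampling noise within each label (chi-square per degree of freedom 56.2 and 187). GENCODE M21 gave symbols for 54495 genes, and rows without one took under 0.01% of counts. In R 4.3.3, genes passing filterByExpr were compared by edgeR 4.0.16 (TMM, glmQLFit, glmQLFTest) with Benjamini-Hochberg adjustment over 16451 genes and a threshold of 0.05. The TMM factor was 1.22 for M7, 1.19 for M8, 0.876 for M9 and 0.787 for M10. Alternatives were DESeq2 size factors, total counts, macrophage, pan-leukocyte and fibroblast marker scaling, 2 other filters, DESeq2 1.42.0 (Wald), a minimum absolute log2 fold change of 1, a threshold of 0.1, leaving out mitochondrial and rRNA-like genes, and leaving out each library. Scripts were tested on simulated data. All members were named. Of each pathway list, up to 4 called genes with the widest change were named, with *Ctnnb1*, *Axin2*, *Lrp5*, *Lrp6*, *Porcn*, *Wls*, *Frzb* and *Wif1*, while *Ccn4* and *Fosl1* were added after their values were seen. Members, lists and tests were chosen with earlier results of these data known.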

Additional observations from a re-analysis of the deposited data

How the results depend on the processing

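*Wnt10b* and *Sfrp2* were lower past the test under all 13 alternatives, with log2 fold changes of -6.33 to -1.83 and -6.34 to -1.92. *Fzd1* and *Wnt9a* were so under 12 of 13, the exception being fibroblast scaling. For the 10 called members, 111 of 130 alternative values kept direction and call, 15 lost the call and 4 changed sign. For the others, 80 of 126 kept both, 33 gained a call and 13 changed sign. The count of lower members (10) was 19 with macrophage, 20 with pan-leukocyte and 2 with fibroblast scaling, and 4 to 13 leaving out each library. The count of higher members (0) was 1 with all genes of at least 1 count, 1 with DESeq2's Wald test and 1 at an adjusted p under 0.1 (*Wnt4* each time), 2 with fibroblast scaling, and 0 to 1 leaving out each library. Other pathway genes higher (6) numbered 3 by total counts, 0 with macrophage, 0 with pan-leukocyte and 28 with fibroblast scaling, and 2 to 9 leaving out each library. Those lower (30) numbered 68, 70 and 4 with macrophage, pan-leukocyte and fibroblast scaling, 17 with a log2 fold change of at least 1, and 15 to 38 leaving out each library. Scaling sets the reference point. The median of all genes was -0.52 by total counts, -2.70 with macrophage, -3.48 with pan-leukocyte and 1.10 with fibroblast scaling, against 0.02 with TMM. Of all genes, 86.3% were lower with macrophage, 92.3% with pan-leukocyte and 3.18% with fibroblast scaling. The shares that were higher were 0.827%, 0.401% and 55.6%, in the same order. The counts above are read against these shares. The sign turned for *Dkk2* with macrophage (-1.81) and pan-leukocyte scaling (-2.64) and leaving out each library (-0.95 to 1.35, lowest without M10), for *Wnt4* with macrophage (-1.88) and pan-leukocyte scaling (-2.68), and for *Wnt5b* leaving out each library (-1.67 to 0.35, highest without M10). With fibroblast scaling it turned for *Fzd2* (0.29), *Fzd4* (0.38), *Fzd5* (0.49), *Fzd6* (0.00805), *Fzd7* (0.97), *Sfrp4* (0.44), *Wnt10a* (0.62), *Wnt2b* (0.43), *Wnt5a* (0.28), *Wnt5b* (0.82) and *Wnt6* (0.10). Apart from what the scaling itself shifts, the cause was not tested. A set of 3 libraries leaves 1 label with a single library, which is then assumed to vary like the other label. Depth limits the 17 members that did not pass the filter, for which no difference could be read. No paired analysis was possible because the labels share no replicate numbers.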

Other observations

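The marker lists of other cell types gave these values, all with TMM scaling and edgeR's quasi-likelihood test. By that test 22.7% of all genes were higher and 16.7% lower, and the counts below are read against these shares. Neutrophil markers were higher in the libraries labelled SykMC-KO for 3 of 3 tested genes, with summed levels of 15.2, 25.9, 311 and 135 CPM in M7, M8, M9 and M10. *Lyz2*, the gene whose promoter drives the Cre and an abundant myeloid transcript, was instead lower there, at 296, 208, 8.64 and 20.2 CPM. B cell markers were higher for 1 of 3 tested genes and stayed at or below 8.93 CPM in sum. Smooth muscle and pericyte markers were lower for 3 of 6, with sums of 329, 292, 53.7 and 91.9 CPM, and endothelial markers for 3 of 8, with sums of 206, 201, 151 and 141 CPM. Neuroblastoma markers were higher for 1 of 4 tested genes, *Gata3*, which T cells also express, and lower for 0. Schwann cell markers were higher for 1 of 3 and keratinocyte markers for 2 of 3 tested genes, with sums of at most 30.6 and 9.26 CPM. Skeletal muscle markers were lower for 2 of 4, with sums of at most 7.12 CPM, and none of the 4 adipocyte markers passed the filter.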
